A study of Mus musculus with 24 samples.

Results

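The response of wild-type LSK cells to poly(I:C) was taken from 7 of the 24 libraries of the series, 3 from wild-type (WT) mice given poly(I:C) and 4 from WT mice given PBS, the vehicle. LSK cells are marrow cells without lineage markers but with Sca-1 and Kit on their surface, a fraction that holds the blood stem cells together with the multipotent progenitors. The libraries were chosen by genotype and treatment alone, and a gene was tested where its normalised count was at least 10 in at least 2 of the 24 libraries, which kept 12628 of 26267 genes. Just inside that limit were Cdr2, Cxcl2 and Dpf3, whose second highest value was 10.01, and just outside were Bdh1 and Mpc1-ps, among others, at 9.99. By their labels the WT mice have neither the Fancg knockout (FancgKO) nor the Mdm4 transgene (Mdm4Tg) that set apart the other 3 genotypes. The labels give no dose, timing, age or strain, and do not say whether marrow was pooled or whether replicates are separate animals. The spread behind each p-value is therefore that between libraries within groups, estimated over all 24. How much of it is technical is not known.

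Poly(I:C) is a synthetic double-stranded RNA that is sensed by endosomal and cytosolic receptors and leads to production of type I interferon. In bone marrow, interferon is known to bring resting stem cells into division and to shift early progenitors toward myeloid and platelet fates. Sca-1, which defines the sort gate, is itself a product of an interferon-inducible gene.

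PBS libraries carry the replicate numbers 2, 6, 7 and 8 and poly(I:C) libraries the numbers 6, 7 and 8, and values are given below in that order. Recovered depth ran from 1281142 to 8178648 reads per WT library, with the number 8 libraries the deepest in each group. The sort label was checked first: Kit, the stem cell factor receptor, had 2157, 1912, 2206 and 2344 with PBS and 1657, 1800 and 1594 with poly(I:C). Ly6a, the Sca-1 gene, was far lower, at 32.4, 24.8, 35.1 and 42.6 with PBS and 22.3, 16.3 and 41.0 with poly(I:C), and its groups overlapped. Fancg lay between 61.5 and 71.9 in the PBS libraries and between 68.4 and 78.4 after poly(I:C). Libraries labelled FancgKO, with or without Mdm4Tg, had 26.1 to 71.4, so the level of this gene overlapped between genotypes and does not check the label. Mdm4 ran from 751 to 955 in WT and from 5023 to 7105 in libraries labelled Mdm4Tg.

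Several libraries stood apart. Xist, the RNA of the inactive X chromosome, had 0, 24.8, 3.34 and 0.496 with PBS and 5943, 20207 and 0.313 with poly(I:C). The Y-linked gene Ddx3y had 486, 398, 390 and 553 with PBS and 223, 0 and 491 with poly(I:C). The poly(I:C) library of number 7 thus held Xist without Ddx3y, that of number 6 held both, and only the number 8 libraries were alike on both genes. The treatment groups therefore differ in sex markers, and results are also given with high Xist (above 100) as a covariate and among libraries with low Xist, where a single poly(I:C) library, number 8, remains and is assumed to vary like the other groups. The ribosomal RNA locus CT010467.1 had 89719, 27627, 44899 and 30052 with PBS and 5365, 8754 and 6679 with poly(I:C), so every PBS library was above every poly(I:C) library. Its log2 difference was -2.40 ± 0.47 with the replicate number as a block (SE, limma adjusted p = 0.00483) and -2.65 ± 0.67 without (0.0853). The share of counts from mitochondrial genes was 5.85%, 5.03%, 4.78% and 7.32% with PBS and 6.89%, 6.01% and 8.84% with poly(I:C), higher after poly(I:C) within each numbered pair although the groups overlapped. The part of either measure in other results was not tested. Among PBS libraries, number 6 had the highest level of most myeloid genes described below.

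Without the replicate number, limma called 2 of 12628 genes (0.0158%), Trib2 as the 1 rise (0.00792%) and H2-Ob as the 1 fall (0.00792%), with 1881 at an unadjusted p under 0.05. Deviations from the group means correlated at 0.448, 0.231 and 0.372 within numbers 6, 7 and 8. Unlike numbers also did, at 0.383 for PBS number 2 with poly(I:C) number 8 and 0.213 for PBS number 7 with poly(I:C) number 6. Shared deviation is thus not particular to a number. In the column names, WT numbers 2 and 8 carry one suffix and numbers 6 and 7 another. Both unlike pairs above share a suffix, but PBS number 6 with poly(I:C) number 7, which also share it, gave -0.0468. With the number as a block limma called 411 genes higher (3.25%) and 458 lower (3.63%), 869 in all (6.88%). Groups that did not overlap were found for 493 of the 869 genes, and among all genes for 5.58% higher and 5.72% lower. The median log2 difference over all genes was -0.01 with the block and 0.00 without. With high Xist as a covariate beside the block 660 genes were called (5.23%, 2.64% higher and 2.58% lower), 547 of them among the 869. Of the genes named below, Kit, Klf1, Hemgn, Gp5, Thbs1, Rag1, Tcf4, Erg, Nr4a1, H2-D1, H2-Q7, Pdia3, Tipin, Hspa5, Cox6a1, Noc4l, Slc2a3, Tgfbr3 and Igkc were called with the block and not with that covariate. Libraries with low Xist alone gave 317 (2.51%, 1.2% higher and 1.31% lower). The count depended on single libraries: with the block it was 292 without PBS number 8, 272 without poly(I:C) number 7 and 217 without poly(I:C) number 8. In what follows, rose and fell refer to calls with the block, at a Benjamini-Hochberg adjusted limma p under 0.05 over all 12628 genes. Apart from Trib2 and H2-Ob, no such call held in the main limma fit without it. Other fits without the block shared 7 of these calls (edgeR), 230 (DESeq2), 350 (column-name suffix as a covariate) or 723 (array weights). Leaving out PBS number 6 shared 436, and leaving out any other WT library, or quantile normalization, shared 0. The gene lists below were chosen with earlier results of these data known. Their shares beside those of all genes therefore describe the lists and are no test of them.

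**Figure D1:**
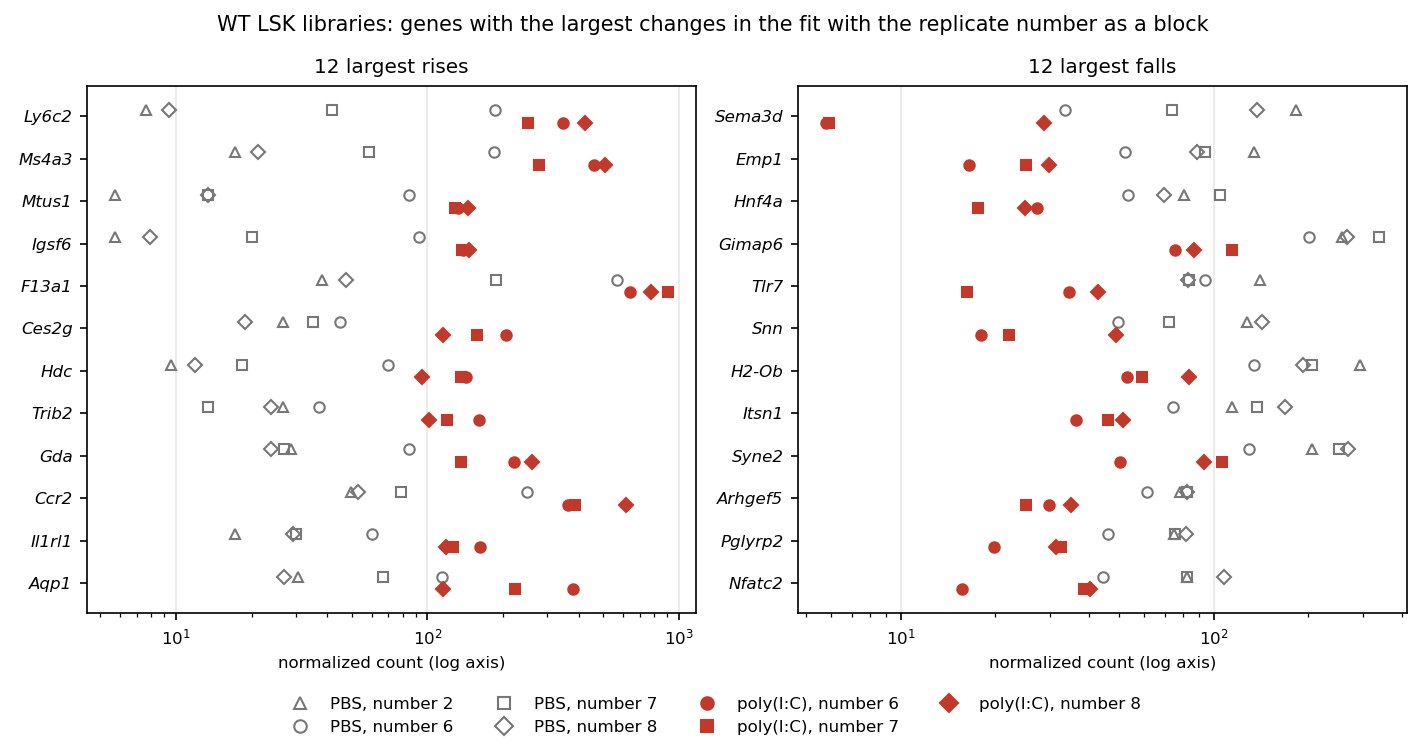
Normalised counts (log axis) of the 12 genes with the largest rises and the 12 with the largest falls among genes with non-overlapping groups, one point per WT library, with open grey symbols for PBS, filled red symbols for poly(I:C) and the symbol shape for the replicate number. PBS number 6 (grey circles) lies nearest to the poly(I:C) libraries in most rises, such as Igsf6 at 92.9 against 138 to 147.

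Trib2 encodes a Tribbles pseudokinase, a family that steers C/EBP proteins to degradation. Its normalised count was 26.7, 37.2, 13.4 and 23.8 with PBS and 161, 120 and 102 with poly(I:C), means of 25.3 ± 9.78 (SD, n = 4) and 128 ± 30.1 (SD, n = 3). All poly(I:C) libraries were above all PBS libraries, and number 6 with PBS did not stand apart here. The log2 difference was 2.35 ± 0.40 without the block (limma adjusted p = 0.0488) and 2.29 ± 0.38 with it (0.00166). Trib2 (ENSMUSG00000020601) lies on the minus strand of chromosome 12, at 15791727 to 15816922 of mm10. Among low Xist libraries the difference was 2.26 with the block. Of the 10 tested genes of the Tribbles and C/EBP list, 2 rose (20%, against 3.25% of all genes) and 0 fell. The median was 0.37 with the block, 0.76 without it and 0.78 in low Xist libraries, and the pairs of number 6, 7 and 8 gave 0.06, 0.13 and 0.83. The other riser was Cebpa, the factor that commits progenitors to granulocytes and monocytes. Cebpa had 66.8, 162, 112 and 58.0 with PBS and 174, 160 and 174 with poly(I:C), groups that overlapped through PBS number 6, and a difference of 0.75 ± 0.19 (limma adjusted p = 0.0177).

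H2-Ob, the beta chain of the H2-O protein that tempers peptide loading on MHC class II, had 294, 134, 206 and 193 with PBS and 52.8, 59.1 and 83.5 with poly(I:C). The groups did not overlap, and number 6 was the lowest PBS library. The log2 difference was -1.62 ± 0.28 without the block (limma adjusted p = 0.0488) and -1.46 ± 0.18 with it (1.44e-04). H2-Ob (ENSMUSG00000041538) lies on the plus strand of chromosome 17 at 34238903 to 34254414. H2-Ob was the only call among 10 tested class II genes (10% lower, against 3.63% of all genes), and the list's median was -0.40. The class II chain gene H2-Aa showed no such separation, with 34.3, 7.96, 21.7 and 59.5 against 3.30, 1.48 and 47.9.

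Genes of neutrophil granules and granulocyte progenitors held the largest share of rises among the myeloid lists. Of 19 tested members, 12 rose (63.2%, against 3.25% of all genes) and 0 fell, with a median log2 difference of 1.30. The risers include Calr, an endoplasmic reticulum chaperone gene that is also counted in the chaperone and MHC class I lists. The medians of the separate pairs were 0.44 for number 6, 1.21 for number 7 and 2.29 for number 8, so the size differed widely between pairs. With high Xist as a covariate 13 members were called, and with low Xist libraries 13. The summed level of the list ran from 3980 to 18355 over the PBS libraries and from 17928 to 24274 with poly(I:C), and number 6 held the PBS maximum. Without that library the median was 1.40 with the block and 1.61 without it, where it was 1.37 over all libraries. In bulk RNA, a change in the share of cells of a type and a change in RNA per cell cannot be told apart.

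Elane, neutrophil elastase, had 13.4, 682, 97.0 and 26.8 with PBS and 1389, 699 and 613 with poly(I:C). PBS number 6 fell among the poly(I:C) libraries while the other PBS libraries lay far below. Its log2 difference was 2.90 ± 0.54 with the block (limma adjusted p = 0.00331) and 3.55 ± 1.04 without (0.122). Prtn3, proteinase 3, had 107, 849, 231 and 130 against 1370, 765 and 923, and rose by 1.77 ± 0.30 (limma adjusted p = 0.0021). Mpo, myeloperoxidase of the primary granules, had 1242, 9805, 2973 and 1133 against 12363, 9885 and 7347. Its groups overlapped through number 6, and it rose by 1.60 ± 0.34 (limma adjusted p = 0.00721). Fcgr3, an activating receptor for IgG that marks granulocyte and macrophage progenitors, had 1.91, 38.0, 5.02 and 2.97 against 84.1, 66.5 and 55.1. Here the groups did not overlap, and the rise was 2.87 ± 0.52 (limma adjusted p = 0.00292). Ms4a3, a membrane protein gene of granulocyte and monocyte progenitors, had 17.2, 184, 58.5 and 21.3 against 462, 278 and 511. It was higher in every poly(I:C) library than in every PBS library. The complement gene C3 had 0, 61.9, 6.69 and 1.49 against 84.1, 76.9 and 62.9, with PBS number 6 just below the lowest poly(I:C) library.

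The promoters of Elane, Prtn3 and Mpo are shown because these protease and peroxidase genes moved together and each holds the letters GAGGAAGT, a form of the site read by PU.1, the ETS factor of myeloid cells. Windows are the 250 bases before the RefSeq start on GRCm38.p6, written 5′ to 3′ on the strand of the gene, with the motif in capitals. Elane is at chr10:79886062-79886311, Prtn3 at chr10:79879417-79879666 and Mpo at chr11:87793534-87793783, all on the plus strand.
Elane: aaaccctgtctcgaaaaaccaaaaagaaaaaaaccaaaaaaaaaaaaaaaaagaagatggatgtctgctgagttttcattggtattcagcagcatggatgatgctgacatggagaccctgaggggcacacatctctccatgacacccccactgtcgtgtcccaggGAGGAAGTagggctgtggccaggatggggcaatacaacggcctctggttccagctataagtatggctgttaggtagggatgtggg
Prtn3: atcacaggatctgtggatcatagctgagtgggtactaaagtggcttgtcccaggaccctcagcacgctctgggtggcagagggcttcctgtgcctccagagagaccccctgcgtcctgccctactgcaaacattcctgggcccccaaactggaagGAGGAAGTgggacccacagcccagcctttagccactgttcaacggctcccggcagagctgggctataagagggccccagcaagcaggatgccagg
Mpo: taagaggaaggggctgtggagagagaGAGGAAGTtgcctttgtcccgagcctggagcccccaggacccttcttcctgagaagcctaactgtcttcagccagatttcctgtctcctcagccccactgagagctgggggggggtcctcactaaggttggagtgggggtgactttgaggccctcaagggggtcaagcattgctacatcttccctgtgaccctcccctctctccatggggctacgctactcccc

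The motif starts 85 bases before the start of transcription in Elane, 95 in Prtn3 and 224 in Mpo. On either strand, GAGGAAGT was found in the promoters of 5 of 23 genes of the granule list in the table (21.7%) and of 2.79% of 27025 genes. Of these 5, the 3 shown rose, S100a8 was not called and Mmp8 was not tested. The C/EBP letters TTGCNNAA were found in 10 of 23 (43.5%) against 10.8% of all genes. Of these 10, 5 were not tested, Fcgr3, C3, Plac8 and Clec12a rose, and Gfi1 was not called. Such matches describe the sequence and are not measured sites. In all, 8 motifs were searched after the values were known.

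Monocyte genes followed the same order of libraries. Of 16 tested members, 5 rose (31.2%, against 3.25% of all genes) and 0 fell. The median was 0.61, and the pair medians were 0.11, 0.99 and 1.15. Ly6c2, the Ly-6C antigen of monocytes, had 7.63, 185, 41.8 and 9.42 with PBS and 345, 251 and 422 with poly(I:C). The groups did not overlap, and the rise was 3.14 ± 0.65 (limma adjusted p = 0.00591). Ccr2, the chemokine receptor for monocyte exit from marrow, had 49.6, 250, 78.6 and 53 against 363, 387 and 617. Again every poly(I:C) library exceeded PBS number 6. F13a1, the coagulation factor XIII A chain, had 38.1, 568, 187 and 47.6 against 642, 908 and 775, and rose by 2.36 ± 0.62 (limma adjusted p = 0.025). By pair its difference was 0.18 for number 6, 2.27 for number 7 and 4.00 for number 8, so the number 6 pair hardly contributed. The remaining risers were Ms4a6c at 1.41 and Zeb2, a repressor needed in monocytes and dendritic cells, at 0.56. Csf1r, the macrophage growth factor receptor, was not called, with 59.1, 218, 98.7 and 29.2 against 147, 185 and 120.

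Mast cell and basophil genes showed 4 rises (28.6%, against 3.25% of all genes) and 1 fall (7.14%, against 3.63%) among 14 tested. The median was 0.56 and the pair medians 0.12, 1.19 and 0.99, so the number 6 pair showed little shift. Il1rl1, the IL-33 receptor, had 17.2, 60.2, 30.1 and 29.2 with PBS and 162, 126 and 119 with poly(I:C). The groups stood clear of each other, and the 3 pairs gave 1.42, 2.03 and 1.99. Its rise was 2.02 ± 0.35 (limma adjusted p = 0.00231). Hdc, which makes histamine, had 9.54, 69.9, 18.4 and 11.9 against 143, 136 and 95.1. Ms4a2, the beta chain of the high-affinity IgE receptor, rose by 1.61. Both had groups that did not overlap. Csf2rb, the shared chain of the GM-CSF, IL-3 and IL-5 receptors, rose by 0.66 with overlapping groups. The fall was Kit, at -0.37 ± 0.10 (limma adjusted p = 0.0245), with every poly(I:C) library below every PBS library.

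Of 22 tested erythroid genes, 5 rose (22.7%, against 3.25% of all genes) and 1 fell (4.55%, against 3.63%). The median was 1.21, and the pair medians were 0.91, 0.83 and 1.15. Gata1, the master factor of red cells and megakaryocytes, had 5.72, 41.6, 20.1 and 11.4 with PBS and 88.2, 84.3 and 53.8 with poly(I:C). All poly(I:C) libraries were higher, and the rise was 1.88 ± 0.32 (limma adjusted p = 0.00227). Klf1, which drives globin and other red cell genes, had 3.81, 17.7, 8.36 and 4.46 against 61.8, 37.0 and 19.7 and rose by 1.86 ± 0.52 (limma adjusted p = 0.0335). With high Xist as a covariate Klf1 was no longer called (limma adjusted p = 0.102). The water channel gene Aqp1 had 30.5, 114, 66.9 and 26.8 against 378, 223 and 115, with the lowest poly(I:C) library barely above the highest PBS library. Apoe rose by 1.15 and the transferrin receptor gene Tfrc by 0.51, while Hemgn, a nuclear protein gene of blood progenitors, fell by 0.52. Hemgn too was lost with that covariate (limma adjusted p = 0.113). Car1, a carbonic anhydrase of early red cells, had 42, 206, 97.0 and 65.4 against 639, 384 and 360 and did not pass (2.25 ± 0.73, limma adjusted p = 0.0659) although its groups did not overlap. Heme synthesis genes included 3 rises among 15 (20%, against 3.25% of all genes). Alas1, the first enzyme of the pathway outside red cells, rose by 1.66 ± 0.28 (limma adjusted p = 0.0021).

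Platelet lineage genes did not move as a group, and their median was 0.24. Of 21 tested, 2 rose (9.52%, against 3.25% of all genes) and 3 fell (14.3%, against 3.63%). Mmrn1, multimerin, had 145, 111, 201 and 262 with PBS and 98.1, 87.2 and 87.9 with poly(I:C). The groups did not overlap, and it fell by 1.00 ± 0.24 (limma adjusted p = 0.0147). Plek, pleckstrin, fell by 0.52. The platelet glycoprotein gene Gp5 rose by 0.99 and Thbs1, thrombospondin, by 1.80, both with overlapping groups. Neither of the 2 rises was called with high Xist as a covariate.

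**Figure D2:**
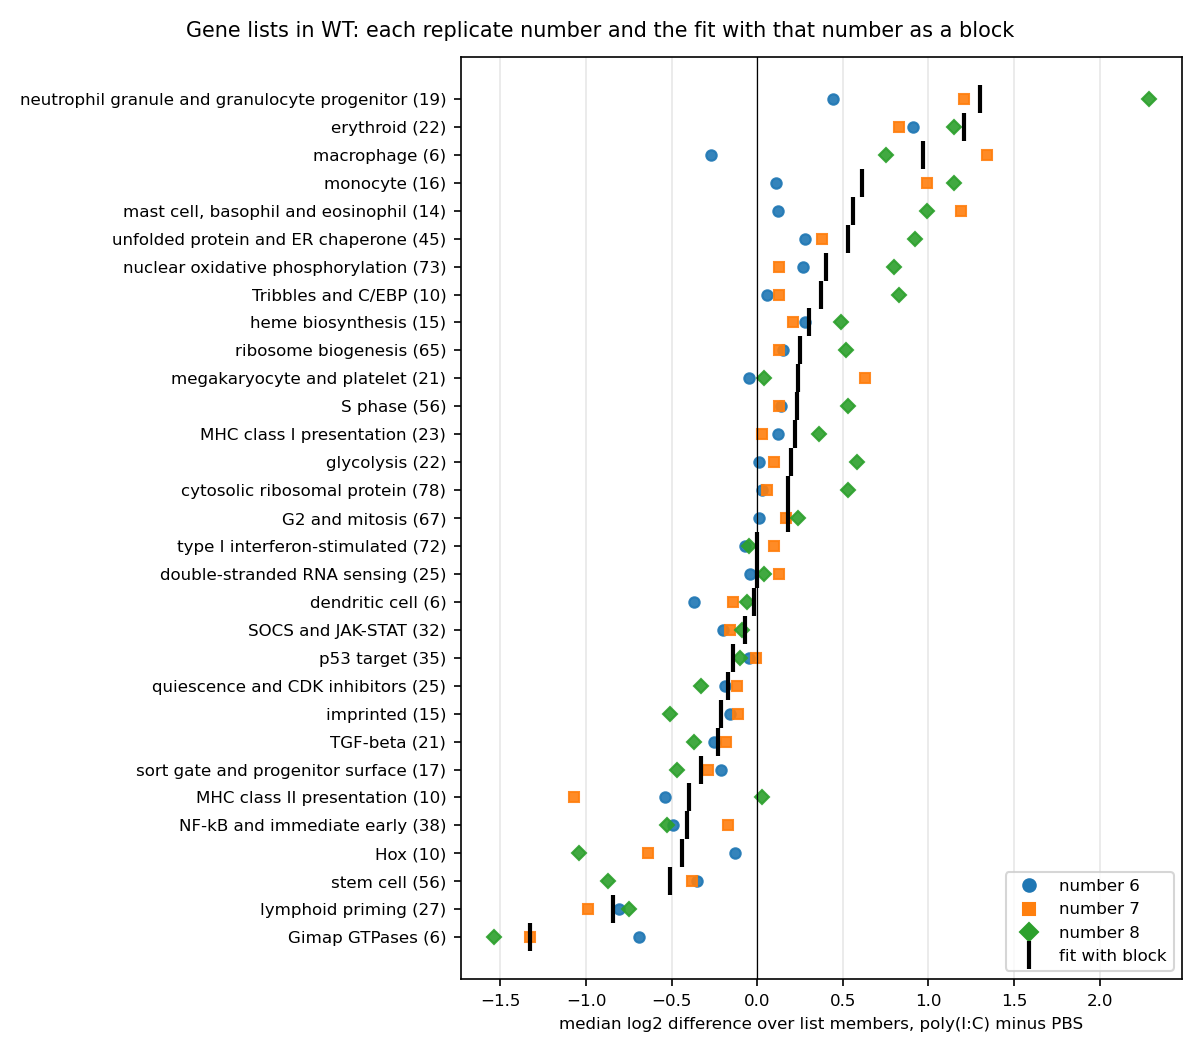
Median log2 difference (poly(I:C) minus PBS) over the tested members of each list with at least 5, for the pairs of libraries numbered 6, 7 and 8 (coloured symbols) and in the fit that blocks on the replicate number (black bar), with the number of tested genes in brackets. Granule genes range from 0.44 to 2.29 between pairs, while the lymphoid list lies between -0.99 and -0.75 and interferon-stimulated genes lie near 0.

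Lymphoid priming genes, the early lymphocyte programme of multipotent progenitors, fell. Of 27 tested members 0 rose and 15 fell (55.6%, against 3.63% of all genes), with a median of -0.84. The pair medians of -0.81, -0.99 and -0.75 were close to each other. With high Xist as a covariate 10 members were called lower, and among low Xist libraries 6. Flt3, the receptor that marks lymphoid-primed progenitors, had 1467, 750, 1274 and 1234 with PBS and 327, 458 and 584 with poly(I:C). No poly(I:C) library reached the lowest PBS library, which was number 6. The difference was -1.22 ± 0.16 with the block (limma adjusted p = 1.51e-04) and -1.37 ± 0.31 without (0.0659). Dntt, terminal transferase, had 1026, 285, 542 and 701 against 52.8, 76.9 and 363, and fell by 2.00 ± 0.24 (limma adjusted p = 1.44e-04). Its groups overlapped between PBS number 6 and poly(I:C) number 8. The chromatin organiser gene Satb1 had 1356, 685, 1000 and 1214 against 373, 473 and 581, and fell by 0.95. The recombinase gene Rag1, at 72.5, 4.42, 3.34 and 28.7 against 0, 0 and 13.1, fell by 1.90 ± 0.41 (limma adjusted p = 0.00851), but was not called with high Xist as a covariate (0.0841). Ighm, the IgM heavy chain, fell by 1.09 and Notch1, the receptor of the T lineage, by 0.73. Gpr171, a G protein-coupled receptor gene, differed by -0.84 ± 0.13 (limma adjusted p = 0.0012).

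The Gimap GTPases are small membrane-bound proteins of lymphocyte survival encoded in a cluster. They fell in 4 of 6 tested members (66.7%, against 3.63% of all genes), with a median of -1.33. Gimap6 had 256, 201, 338 and 266 with PBS and 75.0, 114 and 86.7 with poly(I:C). The groups were well apart, and the pairs gave -1.41, -1.56 and -1.61. Gimap8, Gimap5 and Gimap1 fell by 1.80, 1.39 and 1.27. All 4 remained called with high Xist as a covariate and in the low Xist libraries.

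Stem cell genes also fell: of 56 tested, 0 rose and 22 fell (39.3%, against 3.63% of all genes), with a median of -0.51. With high Xist as a covariate 17 were lower and 1 higher, and with low Xist libraries 12 were lower. Hlf, a bZIP factor of the most primitive stem cells, had 1268, 356, 677 and 1437 with PBS and 189, 331 and 420 with poly(I:C). The groups overlapped between PBS number 6 and poly(I:C) number 8, and the fall was 1.28 ± 0.24 (limma adjusted p = 0.00333). Mecom, the EVI1 factor gene, had 187, 82.3, 174 and 266 against 47.8, 90.2 and 74.5 and fell by 1.17. Procr, the endothelial protein C receptor of long-term stem cells, was low throughout, at 26.7, 14.2, 35.1 and 23.8 against 3.30, 1.48 and 11.0. Its poly(I:C) libraries were all below its PBS libraries, and the fall was 2.34 ± 0.47 (limma adjusted p = 0.0053). Cd34 had 2457, 1789, 1873 and 2144 against 1153, 1465 and 1524, again with no overlap, and fell by 0.54 ± 0.10 (limma adjusted p = 0.00294). Erg, an ETS factor of stem cell maintenance, fell by 0.58, the niche ligand gene Angpt1 by 0.59, the adhesion gene Esam by 1.5 and Mycn by 0.91. Some entries of this list are immediate early genes, described below.

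Genes read at the sort gate and on progenitor surfaces followed suit. Among 17 there were 2 rises (11.8%, against 3.25% of all genes) and 6 falls (35.3%, against 3.63%). The rises were the Fc receptor genes Fcgr3 and Fcgr2b, the latter with 19.1, 65.5, 50.2 and 34.2 against 87.4, 97.6 and 114. The SLAM family gene Cd48, a marker of multipotent progenitors, was not called (0.17 ± 0.15, limma adjusted p = 0.512). Slamf1, the CD150 gene, had 15.3, 15.9, 31.8 and 16.4 against 38.8, 35.5 and 23.2 and was not called either (0.64 ± 0.32, limma adjusted p = 0.229). Of 10 tested Hox genes only Hoxa10 fell (10%, against 3.63% of all genes), with 30.5, 11.5, 43.5 and 30.2 against 6.60, 7.39 and 12.2. Among 15 tested imprinted genes Grb10, an adaptor that dampens insulin receptor signalling, rose by 1.22 ± 0.22 (limma adjusted p = 0.00292) from 55.3, 66.4, 46.8 and 61.9 to 189, 148 and 105. The noncoding RNA Peg13 fell, from 309, 294, 408 and 346 to 149, 182 and 156, and its pairs gave -0.97, -1.16 and -1.15. Neither gene had overlapping groups.

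**Figure D3:**
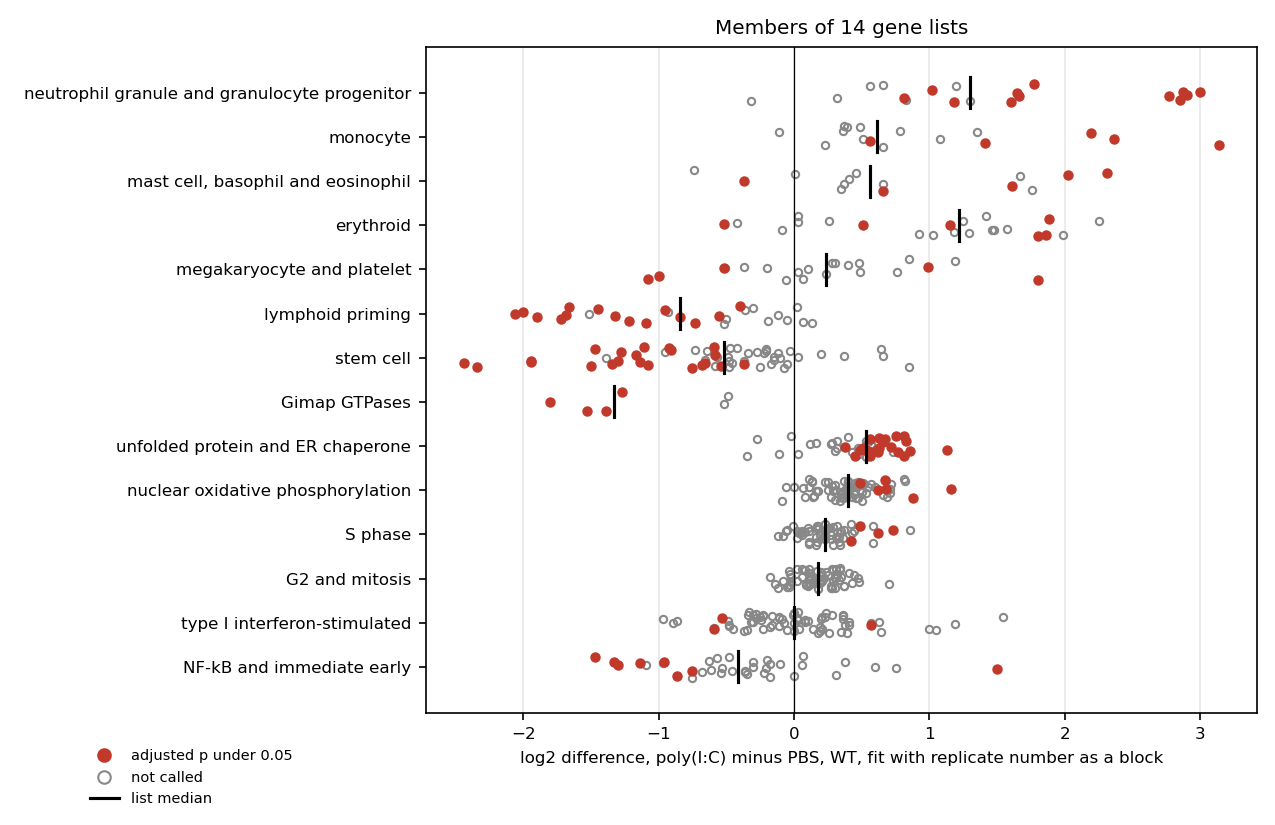
Log2 difference (poly(I:C) minus PBS) in WT for every tested member of 14 lists in the fit that blocks on the replicate number, with filled red points for an adjusted limma p under 0.05, open points for the rest and a black bar at the list median. Granule genes sit right of 0 (median 1.30), lymphoid genes left (median -0.84), and interferon-stimulated genes centre on 0.

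Endoplasmic reticulum chaperone and unfolded protein genes made up the list with the most rises, 22 of 45 (48.9%, against 3.25% of all genes). There were 0 falls, and the median was 0.53. The pair medians were 0.28, 0.38 and 0.92, largest for number 8. With the Xist covariate 19 were called and with low Xist libraries 20. Calr, the calcium-binding chaperone calreticulin, had 1045, 2531, 1396 and 1072 with PBS and 3083, 2335 and 2793 with poly(I:C). PBS number 6 lay among the poly(I:C) libraries, and the rise was 0.81 ± 0.16 (limma adjusted p = 0.0053). Hsp90b1, the chaperone GRP94, had 824, 1318, 870 and 760 against 1666, 1301 and 1843, with the same overlap, and rose by 0.77 ± 0.16 (limma adjusted p = 0.00749). Hspa5, the chaperone BiP, rose by 0.63 and its cochaperone Sdf2l1 by 1.13. The rises reached beyond chaperones: Rpn1, a subunit of the glycosylation complex, rose by 0.86, Hyou1 by 0.81, the degradation factor Edem1 by 0.56 and the translocon gene Sec61a1 by 0.56. Sec61a1 and Edem1 had groups that did not overlap, although for Sec61a1 PBS number 6 (580) and poly(I:C) number 7 (581) nearly met.

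The promoters of Calr and Hsp90b1 are shown because they carry the ER stress element, CCAAT and CCACG with 9 bases of any kind between them, whose letters are rare elsewhere. Capitals mark it on either strand in the 250 bases before the RefSeq start. On GRCm38.p6, Calr is at chr8:84846932-84847181 and Hsp90b1 at chr10:86705445-86705694, both on the minus strand and written 5′ to 3′ along the gene.
Calr: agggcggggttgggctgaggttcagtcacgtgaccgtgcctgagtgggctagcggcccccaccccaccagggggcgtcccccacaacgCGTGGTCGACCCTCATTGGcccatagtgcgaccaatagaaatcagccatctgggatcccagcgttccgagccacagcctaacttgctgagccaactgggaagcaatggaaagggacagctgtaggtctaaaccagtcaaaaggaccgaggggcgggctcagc
Hsp90b1: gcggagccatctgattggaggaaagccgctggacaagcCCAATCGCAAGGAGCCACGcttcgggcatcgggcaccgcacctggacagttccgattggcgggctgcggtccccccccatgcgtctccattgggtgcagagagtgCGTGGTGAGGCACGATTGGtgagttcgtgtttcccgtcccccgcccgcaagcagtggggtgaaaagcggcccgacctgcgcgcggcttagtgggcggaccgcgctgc

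Hsp90b1 holds 2 copies, 1 on each strand, and Calr 1 on the minus strand of the window. The element was found in 8 of 34 listed genes with a promoter in the table (23.5%) and in 35 of 27025 genes (0.13%). Of these 8 genes, Hspa5, Hsp90b1, Calr, Canx, Pdia6 and Dnajc3 rose, and Creld2 (0.53) and Syvn1 (0.55) did not pass.

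Other biosynthetic genes had positive medians with few calls, and the number 8 pair gave the largest of them. Nuclear genes of oxidative phosphorylation had 70 positive differences among 73 and a median of 0.40. Of these 73, 6 rose (8.22%, against 3.25% of all genes) and 0 fell. Its pair medians were 0.27, 0.13 and 0.80, and 3 rises were called with the Xist covariate. Cox6a1, a cytochrome oxidase subunit, had 43.9, 78.8, 43.5 and 61.9 with PBS and 116, 79.9 and 154 with poly(I:C), with poly(I:C) number 7 barely above PBS number 6. Ribosome biogenesis genes had a median of 0.25 and 2 rises among 65 (3.08%, near the 3.25% of all genes), Ddx21 and Noc4l. Cytosolic ribosomal protein genes had a median of 0.18 and no call among 78. Their pair medians were 0.03, 0.06 and 0.53, and the median was 0.41 in low Xist libraries. Of 22 glycolysis genes, Hk3 (0.64) and Ldha (0.57) rose and the glucose transporter gene Slc2a3 fell by 0.56. That is 9.09% higher and 4.55% lower, against 3.25% and 3.63% of all genes.

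Cell cycle genes had small positive differences. Of 56 S phase genes 4 rose (7.14%, against 3.25% of all genes) and 0 fell, with a median of 0.23. The repressor gene E2f8 had 196, 247, 209 and 200 with PBS and 328, 348 and 349 with poly(I:C). Its groups did not overlap, and it rose by 0.62 ± 0.11 (limma adjusted p = 0.00306). Rrm2, the ribonucleotide reductase subunit, had 216, 227, 204 and 206 against 345, 277 and 478 and rose by 0.73 ± 0.15 (limma adjusted p = 0.0053). The replication factors Mcm10 (0.49) and Tipin (0.42) rose too. Of 67 G2 and mitosis genes none was called with the block, and the median was 0.18. Cenpe, a kinetochore motor, had 341, 374, 360 and 365 against 439, 515 and 409 and missed the threshold (0.31 ± 0.10, limma adjusted p = 0.0546). The proliferation marker Mki67 had 2083, 2554, 2090 and 2043 against 2646, 2523 and 2088, groups that overlapped. Quiescence genes showed 0 rises and 3 falls among 25 (12%, against 3.63% of all genes), Egr1, Nr4a1 and Txnip. Egr1, described below with the immediate early genes, differed by -1.30 ± 0.30 with the block and -0.50 ± 1.59 without (limma adjusted p = 0.909). Nr4a1 was not called with high Xist as a covariate. Txnip fell by 0.75 ± 0.18 (limma adjusted p = 0.0148) with no overlap between groups.

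Interferon-stimulated genes, the direct targets of type I interferon, were not shifted as a list. Of 72 tested members 1 rose (1.39%, against 3.25% of all genes) and 2 fell (2.78%, against 3.63%), and the median was 0.00. With high Xist as a covariate beside the block, 1 was higher and 5 were lower, where 2.64% and 2.58% of all genes were called, and in low Xist libraries 1 was higher and 0 were lower. The pair medians were -0.07, 0.10 and -0.05. Irf7, which amplifies interferon production, had 15.3, 31.0, 33.4 and 23.3 with PBS and 29.7, 34.0 and 25.7 with poly(I:C). Irgm1, an immunity-related GTPase that is needed for stem cell maintenance, had 181, 156, 179 and 159 against 162, 163 and 144 (-0.09 ± 0.12, limma adjusted p = 0.722). The groups overlapped for both genes. Isg15 did not pass the filter, with at most 9.07 in any WT library. Ly6e, a Ly-6 family gene, rose by 0.57 ± 0.14 (limma adjusted p = 0.0154) with PBS number 6 above 2 of the poly(I:C) libraries. Ifi203, a nuclear DNA-binding protein gene, fell by 0.59 ± 0.10 (limma adjusted p = 0.00181), as did Uba7, the activating enzyme for ISG15, by 0.53.

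Irgm1 is shown for its promoter because it holds overlapping copies of the interferon-stimulated response element, GAAA and again GAAA after 2 bases of any kind, beside a level that was not called. The window is chr11:48871421-48871670 of GRCm38.p6, minus strand, written along the gene with the matches in capitals.
Irgm1: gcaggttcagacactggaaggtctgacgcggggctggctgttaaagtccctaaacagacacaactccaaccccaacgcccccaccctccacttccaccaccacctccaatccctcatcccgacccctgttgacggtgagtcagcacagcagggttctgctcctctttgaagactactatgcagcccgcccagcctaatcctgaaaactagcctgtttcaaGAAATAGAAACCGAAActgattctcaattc

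The nearest of its 2 matches lies 24 bases before the start. The element was found in 29 of 63 listed interferon genes (46.0%) and in 3.46% of all genes. Of those 29 genes 22 were tested, and Ifi203, which was lower, was the only call.

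Among 25 genes of double-stranded RNA sensing, 0 rose and 1 fell (4%, near the 3.63% of all genes). The fall was Tlr7, the endosomal receptor for single-stranded RNA, which is X-linked. Tlr7 had 141, 93.8, 83.6 and 82.8 with PBS and 34.6, 16.3 and 42.6 with poly(I:C). Every poly(I:C) library was below every PBS library. Its difference was -1.52 ± 0.29 (limma adjusted p = 0.00365), and -1.24 with high Xist as a covariate (0.0415). Ifih1, the cytosolic sensor MDA5, had 128, 154, 142 and 186 against 182, 186 and 191 and was not called (0.23 ± 0.11, limma adjusted p = 0.224). Of 23 genes of MHC class I presentation 5 rose (21.7%, against 3.25% of all genes). They were Calr, Canx, Pdia3, H2-Q7 and H2-D1, and the first 3 also belong to the chaperone list. H2-Q7 had 156, 145, 164 and 188 against 266, 243 and 209, with no overlap. Only 2 genes of the list were called with high Xist as a covariate, where H2-Q7 had a difference of 0.25 (limma adjusted p = 0.341). How reads shared with its near copies were assigned is not given in the sources used here, and the same holds for Ly6c2 and Ces2g.

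Cytokine receptor and signalling genes changed singly. Ifngr1, the interferon gamma receptor, had 185, 346, 249 and 231 with PBS and 614, 479 and 572 with poly(I:C). The groups were far apart, and the rise was 1.07 ± 0.22 (limma adjusted p = 0.0053). Stat4 fell by 0.77, and these were the only calls among 32 genes of the SOCS and JAK-STAT list. That is 3.12% higher and 3.12% lower, near the 3.25% and 3.63% of all genes. In the TGF-beta list 2 of 21 rose (9.52%, against 3.25% of all genes) and 4 fell (19%, against 3.63%). Tgfbr2, the ligand-binding receptor, had 193, 196, 244 and 218 against 135, 145 and 137 and fell by 0.62 ± 0.13 (limma adjusted p = 0.00608). Tgfbr3 rose by 0.67 and Tgfb1 by 0.38. In this list 1 rise and 1 fall were called with high Xist as a covariate, and none in low Xist libraries.

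Immediate early and NF-kB genes depended on the pairing. With the block 1 of 38 rose (2.63%, against 3.25% of all genes) and 7 fell (18.4%, against 3.63%). The median was -0.41 with the block and -0.04 without it. Jun had 216, 2897, 2130 and 403 with PBS and 1716, 1746 and 173 with poly(I:C). The number 6 and 7 libraries were high and the number 8 libraries low in either treatment, and PBS number 2 was low too. This split is also that of the suffix in the column names, whose meaning is not given. Its difference was -0.75 ± 0.17 with the block (limma adjusted p = 0.00969) and -0.09 ± 1.20 without (0.979), and without the block it turned positive when PBS number 6, PBS number 7 or poly(I:C) number 8 was left out (0.49, 0.35 and 1.01). Egr1 followed the same order, with 34.3, 586, 522 and 58.0 against 226, 460 and 12.5, as did Zfp36, with 111, 867, 811 and 120 against 397, 575 and 46.6. The chemokine gene Ccl4 differed by -1.33 with the block. Dusp2, a phosphatase of MAP kinases, had 219, 282, 426 and 197 against 178, 204 and 115 and fell by 0.86 ± 0.13 (limma adjusted p = 0.00123). The single rise was Tnfaip2, at 1.5 ± 0.27 (limma adjusted p = 0.00306), with 26.7, 69.9, 43.5 and 32.2 against 185, 121 and 104.

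Of 35 tested p53 target genes 2 rose (5.71%, against 3.25% of all genes) and 4 fell (11.4%, against 3.63%). The median was -0.14 with the block and 0.01 without it (0.09 without PBS number 6), and in low Xist libraries 0 were higher and 1 was lower. Pmaip1, the proapoptotic protein NOXA, had 1.91, 7.96, 3.34 and 4.96 with PBS and 26.4, 25.1 and 17.5 with poly(I:C) and rose by 2.00 ± 0.40 (limma adjusted p = 0.00499). Apaf1, the apoptosome scaffold, rose by 0.44. Sesn1 had 368, 275, 303 and 330 against 156, 192 and 230 and fell by 0.68 ± 0.10 (limma adjusted p = 0.00109), and Trp53inp1 fell by 0.92. Pmaip1 and Sesn1 had no overlap. Trp53 (0.04 ± 0.12, limma adjusted p = 0.86), Mdm2 (-0.09 ± 0.11, 0.679) and Mdm4 (-0.07 ± 0.09, 0.68) were not called. Mdm4 had 938, 758, 947 and 955 against 786, 940 and 751.

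Large changes also occurred in genes of other roles, which were named here only where the groups did not overlap. Ces2g, a carboxylesterase gene, had 26.7, 45.1, 35.1 and 18.8 with PBS and 206, 158 and 115 with poly(I:C). Gda, guanine deaminase, had 28.6, 84.9, 26.8 and 23.8 against 222, 136 and 260. They rose by 2.32 and 2.25. Mtus1, a microtubule-associated protein gene, and Igsf6, an immunoglobulin superfamily gene of myeloid cells, rose by 2.58 and 2.56, with PBS number 6 nearest to the poly(I:C) libraries. The largest fall among these was Sema3d, a secreted semaphorin, with 183, 33.6, 73.6 and 137 against 5.77, 5.91 and 28.8. Its difference was -2.65 ± 0.32 (limma adjusted p = 1.44e-04). Hnf4a, a nuclear receptor best known from liver, had 80.1, 53.1, 105 and 69.4 against 27.2, 17.7 and 25. The membrane protein gene Emp1 fell by 1.63, stannin (Snn) by 1.52, the endocytic scaffold Itsn1 by 1.42 and the nuclear envelope gene Syne2 by 1.32. Arhgef5, a guanine nucleotide exchange factor gene, fell by 1.29, the peptidoglycan amidase gene Pglyrp2 by 1.24 and Nfatc2, a calcineurin-dependent factor, by 1.23. All 24 genes of the plot of largest changes were also called with high Xist as a covariate beside the block.

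Markers of mature cells were sparse. Of 17 T and NK cell genes in the file 2 passed the filter, and of 11 B cell genes 4. Cd3e was at most 1.91 in any WT library, and the neutrophil gene Ly6g at most 0.626. Summed T and NK genes ran from 199 to 229 in PBS libraries and from 209 to 310 after poly(I:C), of which Nkg7, also a progenitor gene, made up the larger part. The plasma cell list summed to 28.4 to 446 in PBS libraries and 16.5 to 99.2 after poly(I:C), with Ighg1 at 0 throughout. Igkc, the kappa light chain, had 36.2, 5.31, 5.02 and 286 with PBS and 0, 0 and 67.3 with poly(I:C), so the number 8 libraries were highest in each group. Summed macrophage genes ran from 89.2 to 311 in PBS libraries and from 206 to 272 after poly(I:C), and C1qa reached 1.91 at most. Summed mature neutrophil genes ran from 200 to 266 against 196 to 278. Summed dendritic cell genes ran from 1755 to 2781 in PBS libraries and from 1127 to 1686 after poly(I:C), without overlap, and the list holds Flt3, which fell, and Tcf4, which fell by 0.40. Summed stromal and endothelial genes ran from 391 to 547 against 320 to 521, and summed B cell genes from 194 to 268 against 172 to 219. The part of such cells in the results above was not tested.

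The WT response was set against the mean response of FancgKO, Mdm4Tg and FancgKO_Mdm4Tg mice, each against its own PBS libraries. No gene of 12628 was called in this comparison (0%), with limma without or with the block, edgeR or DESeq2. At an unadjusted p under 0.05 there were 66 genes with limma, 254 with the block, 61 with edgeR and 47 with DESeq2. All 24 genes with the largest WT changes had the same direction in the 3 other genotypes. For Sema3d the differences with the block were -2.65 in WT, -1.16 in FancgKO, -2.26 in Mdm4Tg and -1.85 in FancgKO_Mdm4Tg, and the WT excess was -0.89 ± 0.38 (limma adjusted p = 1). For Trib2 they were 2.29, 1.36, 2.47 and 2.44. These genes were chosen for their size in WT, so smaller values elsewhere cannot be read as a difference. The comparison used the mean of the 3 other genotypes. WT was not tested against FancgKO or any other single genotype, so equal responses are not shown either. List medians in FancgKO, Mdm4Tg and FancgKO_Mdm4Tg were 0.89, 1.53 and 1.56 for granule genes, against 1.30 in WT. For lymphoid priming genes they were -0.33, -0.81 and -0.55, against -0.84, and for interferon-stimulated genes -0.20, -0.10 and -0.09, against 0.00.

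**Figure D4:**
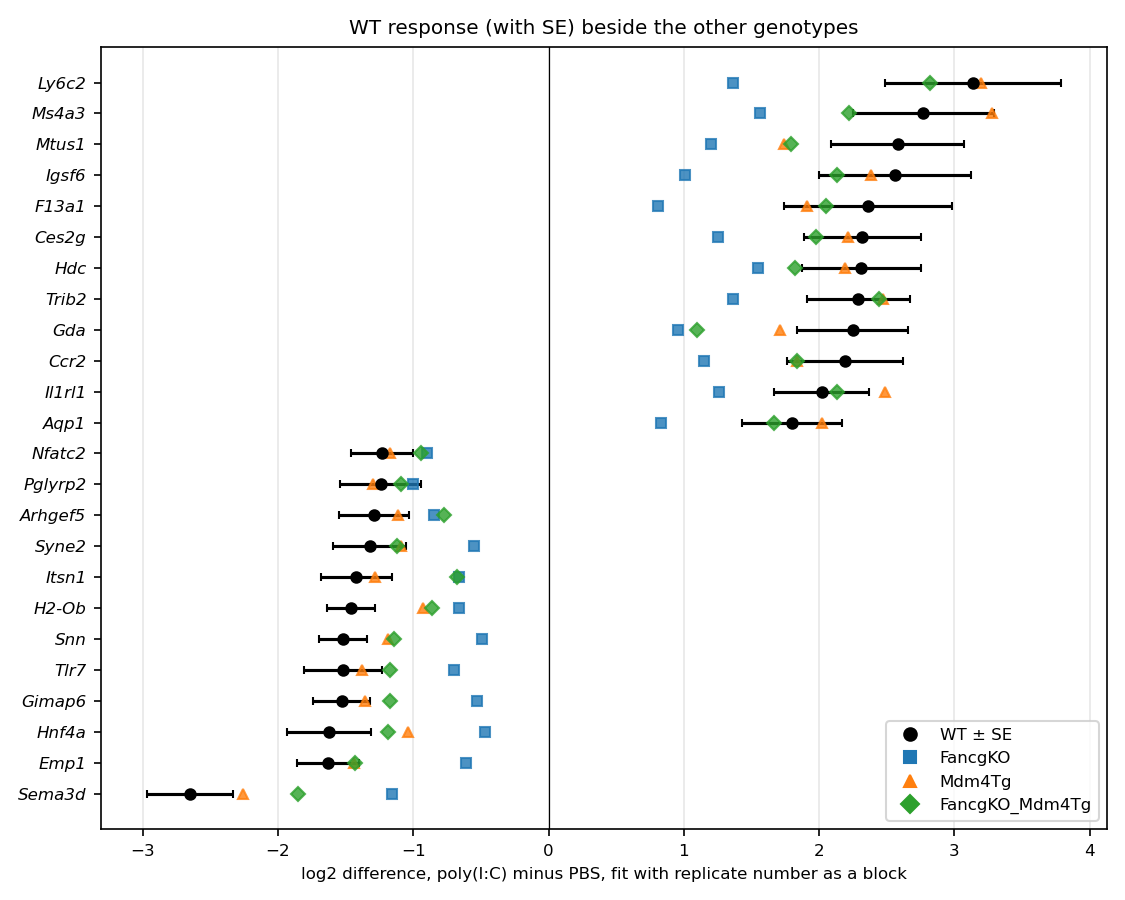
Log2 difference (poly(I:C) minus PBS) with the replicate number as a block for the 24 genes with the largest WT changes, with black circles and SE bars for WT, blue squares for FancgKO, orange triangles for Mdm4Tg and green diamonds for FancgKO_Mdm4Tg. All points of a gene lie on the same side of 0, and FancgKO points lie nearer 0 than WT points, as for Ly6c2 at 1.36 against 3.14.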

How the data were processed

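RNA of LSK cells was sequenced in 24 libraries of 4 genotypes given poly(I:C) or PBS, and 7 are WT. The authors deposited a table of normalized counts per gene (a signal scale, not raw counts). Reads were aligned with STAR to mm10, per the submitters' processing notes. The read counter, annotation, normalization and use of molecular identifiers are not given in the sources used here. Values were whole multiples of a library's smallest step for all genes (100%, relative tolerance 1e-06), so reads were recovered for edgeR and DESeq2, which served as alternatives. WT depths of 1281142 to 8178648 reads limit the precision of low genes in the shallow libraries.

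The main test was limma with trend on log2(normalized count + 1), fitted on all 24 libraries with 8 group means (22.3 moderated degrees of freedom), for genes with at least 10 in at least 2 libraries, with Benjamini-Hochberg adjustment and a threshold of 0.05. Folds on this scale understate the change of low genes. Replicate numbers were checked as a pairing: deviations from the WT group means correlated at 0.448 for number 6, 0.231 for number 7 and 0.372 for number 8. Poly(I:C) number 8 also correlated with PBS number 2 (0.383), and poly(I:C) number 6 with PBS number 7 (0.213). The labels do not say what a number marks, and PBS number 2 has no partner. The block also absorbs a suffix in the column names, which sets WT numbers 2 and 8 apart from 6 and 7. The fit with the block (21.9 degrees of freedom) is given beside the main one for the counts of calls and for some genes and lists. For most genes and lists only the values with the block are given.

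Named genes were the 12 largest rises and 12 largest falls among genes called with the block, with a mean of at least 50 and groups that do not overlap, the 4 genes of smallest p per list with such a mean, the 2 genes of the main fit, and a few fixed markers and study genes. Genes named outside this rule were chosen after their values were seen. The 36 lists hold 1161 entries, of which 962 were tested. Members and lists were chosen with earlier results of these data known. Fits with high Xist (above 100, in 6 of the 24 libraries) as a covariate or with the 18 low Xist libraries were added after seeing the data. Promoters came from RefSeq (GRCm38.p6). The fits were tested on simulated data. Versions were R 4.3.3, limma 3.58.1, edgeR 4.0.16, DESeq2 1.42.0, python 3.11.15, numpy 2.4.6, pandas 2.3.3 and matplotlib 3.10.9.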

Additional observations from a re-analysis of the deposited data

Results flagged for a closer look

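Of 172 named genes tested for a PBS library far from the other 3, 16 stood out by the gap to the nearest library relative to the range. The limit passes about 1 in 20 for independent normal values. These were untransformed counts of genes that move together, some named after their values were seen. The number flagged therefore cannot be compared with that rate. In 11 genes PBS number 6 was the highest: Mtus1 (84.9), Igsf6 (92.9), Hdc (69.9), Gda (84.9), Ccr2 (250), Prtn3 (849), Elane (682), Fcgr3 (38.0), C3 (61.9), Mki67 (2554) and Xist (24.8). In 2 genes it was the lowest, Hoxa9 at 121 against 229 to 249 and Mdm4 at 758 against 938 to 955. PBS number 7 was the highest for Slamf1 (31.8). PBS number 8 was the highest for the immunoglobulin genes Igkc (286) and Jchain (133).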

How the results depend on the processing

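Of 12628 genes, 2 were called without a replicate block. The count was 869 with the replicate block, 891 with the replicate block and TMM scaling, 1652 with the replicate block and edgeR, and 629 with the replicate block in the 7 WT libraries alone. Without the block it was 0 with a pseudocount of 0.5, with no filter on low values or with quantile normalization, 7 with edgeR, 239 with DESeq2, 350 with the column suffix as a covariate and 1659 with array weights. Leaving out 1 WT library gave 0 to 520 calls, 520 without PBS number 6 and 0 without any other, and 217 to 766 with the replicate block: 588, 766, 638 and 292 without PBS number 2, 6, 7 or 8, and 642, 272 and 217 without poly(I:C) number 6, 7 or 8. High Xist as a covariate gave 0 calls, or 660 with the block, and low Xist libraries alone gave 0, or 317 with the block. The count of genes called for a WT response unlike the mean of the other genotypes was 0 throughout. Of 4611 values of named genes under alternatives, 36 changed sign; list genes called by neither fit and not named are left out. Egr1 turned to 0.26 with array weights and to 0.13, 0.07 and 1.02 without PBS number 6, PBS number 7 or poly(I:C) number 8. Jun turned to 0.65, 0.49, 0.35 and 1.01 under the same settings, Zfp36 to 0.14 with array weights and 0.62 without poly(I:C) number 8, and Nfkbiz to 0.07 without the latter. Over the left-out libraries without the block, the lowest value was -1.52 for Egr1, -0.75 for Jun, -1.18 for Zfp36, -1.16 for Nfkbiz and -0.26 for Mdm2, and the highest for Trp53 was 0.15. Differences near 0 turned when a library was left out: Fancg -0.01, Irf7 0.00, -0.07 and -0.02, Mdm2 0.08 and 0.05, Mdm4 0.02, and Trp53 -0.02 and -0.03. In the fits with Xist as a covariate or low Xist, Xist turned to -1.04, -1.45 and -0.44, Igkc to 0.55 and 1.44, Jchain to 0.12, Rag1 to 0.09, Ly6a to 0.30, Mki67 to -0.03 and -0.06, Trp53 to -0.08 and -0.06, Irf7 to -0.17 and -0.04, and Fancg to -0.01 and -0.02. The cause was not tested. The shallowest library, PBS number 2 with 1281142 reads, limits genes at a few counts.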
